A study of Homo sapiens with 3 samples.

Results

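Kidney tubule identity and transport genes were examined in TK-10 cells, an established human renal carcinoma line. The 52 genes cover the transcription factors, adhesion molecules, channels, brush border proteins, solute carriers, sodium pump subunits, enzymes, injury molecules and keratins by which tubule epithelium is recognised. They were selected on kidney tubule function and on ratios of these same arrays that were already known, treated over control, so their counts are given as a description and support no inference. Of the 52 genes, 51 had a probe that could be named, among 22430 named genes on the array in all, and CALB1 was not analysed here.

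The series held 3 single-colour arrays with 1 array per condition, each hybridised with Cy3-labelled cRNA from total RNA. The control cells received 0.1% DMSO, the second culture received cordyceps at 750 μg/mL, and the third received sunitinib, a receptor tyrosine kinase inhibitor, at 10 μM, each for 48 h. All 3 cultures, control included, grew with troglitazone, an agonist of the nuclear receptor PPARγ, at 10 μM, and with zinc sulfate at 16.7 μM and nicotinamide at 10 mM. The medium also held antibiotics and fetal bovine serum (10%). The labels name the fungus cordyceps, whereas the methods of the study name cordycepin, a nucleoside from that fungus, at another dose, so the treated array is called the cordyceps array. A single carcinoma line stood for each condition, no untreated normal tubule cells were measured, and with no replicate array no test between conditions and no p-value was possible.

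The renal tubule is a polarised epithelium whose proximal part reclaims filtered glucose, amino acids, phosphate, bicarbonate and proteins, and whose distal parts adjust salt, potassium and water. PAX2, PAX8 and LHX1 act early in nephron formation, whereas HNF4 factors drive the genes of the mature proximal tubule. Apical carriers and peptidases sit in the brush border, and the sodium pump on the basolateral side powers sodium-coupled transport. Tubule cells that are injured or cultured lose many of these transport genes and show HAVCR1, VCAM1 and vimentin.

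Levels are given below as the processed signal of a gene's probe divided by the 75th percentile of all gene probes on the same array, which was 164.6 on the control array, 137.9 on the cordyceps array and 78.2 on the sunitinib array. A log2 ratio is the log2 difference of that relative level, treated over control. A gene was compared where its probe was well above background, as the scanner software judges it, on 1 or both arrays of a comparison, and it was called higher or lower past 2-fold. Where 1 of the 2 arrays was not well above background, the ratio was only a bound and is written as "at least". The value after ± is the 95% technical limit from the software's error estimate for the 2 signals, which covers spot error and not the variation between cultures. Fewer cells holding an mRNA and less of that mRNA per cell cannot be told apart in these bulk samples.

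Of the 51 genes, 31 were well above background on the control array and 29 on each treated array. On all 3 arrays 27 were detected, 5 were detected on 1 or 2 arrays, and 19 on none. On the control or sunitinib array 31 of the 51 were detected, beside 14894 of all 22430 named genes. For the control or cordyceps array these numbers were 32 of 51 and 14773 of 22430. Many genes outside the group were thus undetected too. The 19 undetected genes included the proximal transcription factor HNF4A, the developmental factor EMX2 and the epithelial cadherin CDH1. They also included the Kir channel KCNJ10, the water channel AQP3, the endocytic receptor CUBN and the brush border protein VIL1. Among solute carriers, SLC5A1, SLC22A2, SLC22A6, SLC22A8, SLC34A1, SLC13A3 and SLC9A3 of the proximal tubule and SLC12A1 and SLC12A3 of the loop and distal tubule were not well above background. KL, the co-receptor for the phosphate-regulating hormone FGF23, and the gluconeogenic enzymes FBP1 and PCK1 completed the set. The processed signals of these 19 probes lay between 3.88 and 19.9 on the control array, 6.06 and 8.06 on the cordyceps array, and 3.70 and 11.3 on the sunitinib array. By these probes the cells held PAX8, PAX2, LHX1, kidney cadherins and keratins, while 7 of 9 proximal carriers and 3 of 4 distal nephron genes with a probe were not well above background.

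**Figure D1:**
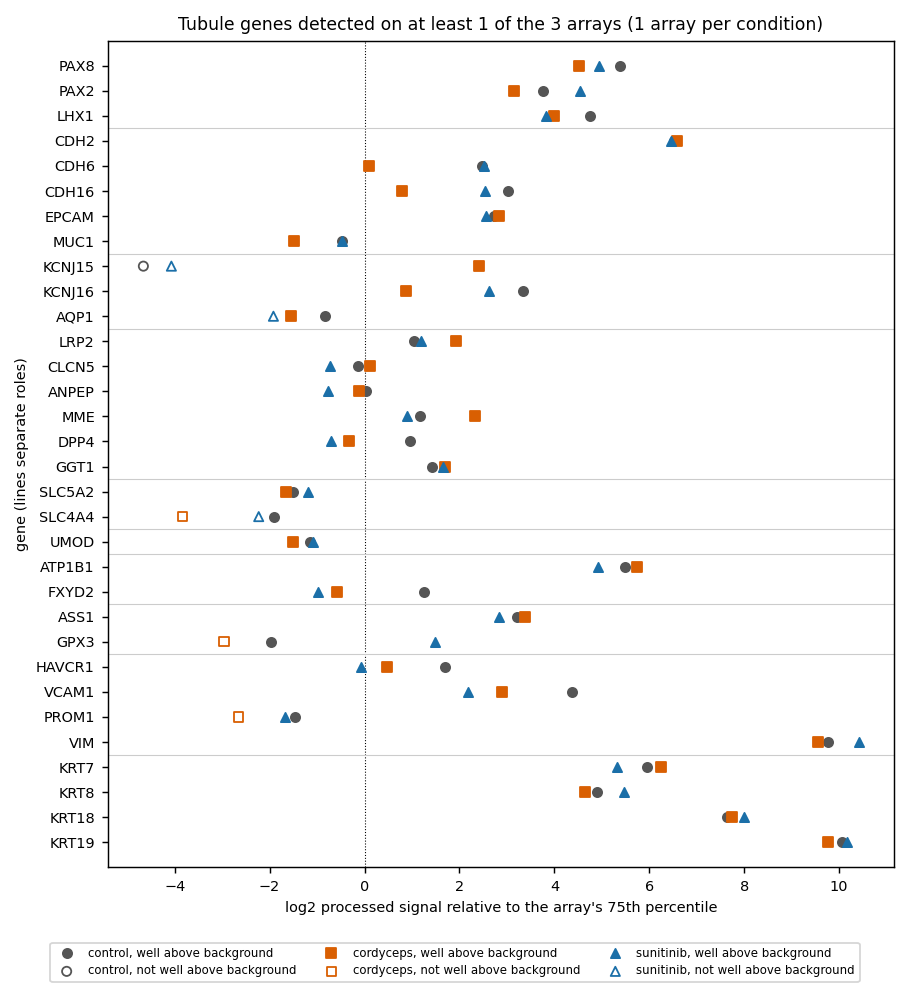
Level of each of the 32 tubule genes detected on at least 1 array, as log2 of the processed signal over its array's 75th percentile, with genes in rows by role and 1 point per array; open points were not well above background. CDH6, CDH16 and KCNJ16 show the cordyceps square apart to the left, VCAM1, HAVCR1, FXYD2 and DPP4 show both treated points to the left of control, and GPX3 shows the sunitinib triangle to the right.

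On the sunitinib array, 1 of 31 compared genes was called higher (3.23%) and 5 were called lower (16.1%), while over all genes compared 6.41% were called higher and 6.49% lower. The median log2 ratio of the 29 genes measured on both arrays was -0.22, beside 0.00 over all 12992 measured genes. On the cordyceps array, 2 of 32 compared genes were called higher (6.25%) and 8 lower (25%), beside 2.93% and 2.74% over all genes compared. KCNJ15, 1 of the 2 higher genes, lay in a bright streak of that array described below. With spots in bright areas left out, 1 tubule gene was higher and 7 lower, beside 383 higher and 364 lower over all genes. The median of the 28 genes measured there was -0.27, beside 0.01 over all 13030 measured genes. With each array scaled to its median instead, the sunitinib split became 1 higher and 8 lower, and the cordyceps split 3 higher and 6 lower. That scaling moved the median of all genes by -0.33 and 0.22, and gave 517 genes higher and 1926 lower over all genes for sunitinib, in place of 955 and 967, and 734 higher and 222 lower for cordyceps, in place of 433 and 405. The values deposited without scaling between arrays moved all genes by -1.07 for sunitinib, and then 22 tubule genes were lower and 1 higher, beside 7989 lower and 156 higher over all genes. Both comparisons share the control array, so their values are given side by side and no relation between them was computed.

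**Figure D2:**
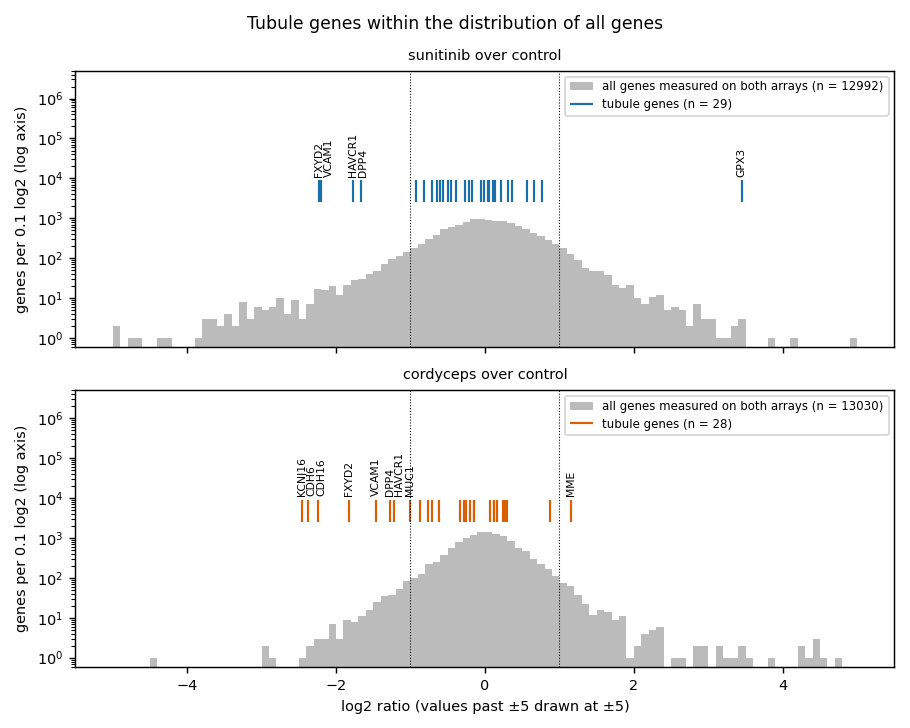
Number of genes in each interval of 0.1 of the log2 ratio (log axis, grey bars) for sunitinib over control (12992 genes) and cordyceps over control (13030 genes), with the measured tubule genes as coloured ticks of arbitrary height and those past 2-fold named. GPX3 is the only tubule gene past the right-hand 2-fold line in the upper panel, and KCNJ16, CDH6 and CDH16 lie farthest left in the lower panel.

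The nephron transcription factors that were detected kept within 2-fold of control on both treated arrays under the processing reported. PAX8, which marks tubule lineage in normal and malignant kidney, had relative levels of 41.8 on the control array, 22.9 on the cordyceps array and 30.5 on the sunitinib array. Its log2 ratio was -0.87 ± 0.40 for cordyceps, not far from the 2-fold limit, and -0.46 ± 0.40 for sunitinib. PAX2, its close relative in nephron formation, read 13.5, 8.79 and 23.1 in the same order, so that the control value lay between the treated ones. The PAX2 log2 ratio was -0.62 ± 0.40 for cordyceps and 0.77 ± 0.40 for sunitinib. LHX1, a LIM homeodomain factor of the early nephron, was lower on both treated arrays at 15.8 (cordyceps) and 14.2 (sunitinib) against 27.0. The LHX1 log2 ratios were -0.77 ± 0.40 and -0.93 ± 0.40. PAX8 was called lower with cordyceps under quantile normalization and LHX1 lower with sunitinib under normexp and median scaling, and both were called lower in both comparisons with the unscaled deposited values.

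Among adhesion genes, the kidney cadherins CDH6 and CDH16 were lower on the cordyceps array, and the N-cadherin gene CDH2 was not. CDH6, a cadherin of the forming and proximal tubule, had relative levels of 5.55 on the control array, 1.07 with cordyceps and 5.70 with sunitinib. Only the cordyceps array was low, with a log2 ratio of -2.38 ± 0.42 (5.20-fold lower), and the sunitinib ratio was 0.04 ± 0.40. CDH16, the kidney-specific cadherin of the basolateral membrane, read 8.14, 1.73 and 5.78, again with the cordyceps array lowest. Its log2 ratio was -2.24 ± 0.41 (4.71-fold lower) for cordyceps and -0.49 ± 0.40 for sunitinib. CDH2, the main cadherin of proximal tubule cells, stayed at 91.1, 95.9 and 87.8. A second CDH2 probe gave a log2 ratio of -0.72 for sunitinib where the first gave -0.05, so the CDH2 probes differed there. EPCAM, an epithelial adhesion molecule, read 6.63, 7.18 and 5.86 on the control, cordyceps and sunitinib arrays, within 2-fold of each other. MUC1, an apical mucin, read 0.723, 0.359 and 0.719. Its cordyceps ratio of -1.01 ± 0.59 (2.01-fold lower) lay at the 2-fold limit, and the call was lost under 4 other ways of processing.

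Of the channel genes, the Kir channel subunit gene KCNJ16 had the lowest cordyceps ratio of all the tubule genes. KCNJ16 forms basolateral potassium channels with KCNJ10, whose probes were not well above background on any array. The relative level of KCNJ16 was 10.1 on the control array, 1.85 on the cordyceps array and 6.19 on the sunitinib array. This gave a log2 ratio of -2.46 ± 0.41 (5.49-fold lower) for cordyceps, rank 5 from the lowest of 13030 measured genes, and -0.71 ± 0.40 for sunitinib. AQP1, the water channel of the proximal tubule, read 0.558 on the control array and 0.342 on the cordyceps array, and 0.264 on the sunitinib array, where it was not well above background. Sunitinib was thus at least 2.11-fold lower for AQP1, and the cordyceps log2 ratio was -0.71 ± 0.63. With normexp background correction the AQP1 log2 ratio for sunitinib was -0.15, and the gene was no longer called.

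KCNJ15, another Kir channel subunit, passed the call on the cordyceps array only within a bright streak of that array. Its processed signal was 738 there, against 6.5 on the control array and 4.66 on the sunitinib array, where it was not well above background. The 48 neighbouring spots had a median signal of 849 on the cordyceps array, 6.67 on the control array and 4.69 on the sunitinib array. The spot of KCNJ15 was therefore no brighter than its surroundings on any of the 3 arrays. Its second probe was not well above background anywhere, and with spots in bright areas left out, 1 gene was called higher on the cordyceps array, MME. No ratio is given for KCNJ15.

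Brush border genes differed in direction on the cordyceps array, where MME was higher and DPP4 lower. MME, the apical metallopeptidase neprilysin, had relative levels of 2.25 on the control array, 5.00 with cordyceps and 1.87 with sunitinib. Only the cordyceps array was high, with a log2 ratio of 1.15 ± 0.40 (2.22-fold higher), and the sunitinib ratio was -0.27 ± 0.41. The other 2 MME probes gave cordyceps ratios of 0.95 and 1.58, both upward. The MME call was lost with normexp and with the unscaled deposited values, at 0.90 in each. DPP4, a dipeptidyl peptidase of the proximal brush border, read 1.94, 0.796 and 0.612, so that both treated arrays lay below control. Its log2 ratio was -1.28 ± 0.45 (2.43-fold lower) for cordyceps and -1.66 ± 0.49 (3.16-fold lower) for sunitinib. With normexp both DPP4 calls were lost, at -0.87 for cordyceps and -1.0 for sunitinib.

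The other detected genes of this role stayed within 2-fold. LRP2, the megalin gene for protein uptake, read 2.06 on the control array, 3.77 with cordyceps and 2.27 with sunitinib. Its cordyceps ratio was 0.88 ± 0.40, past the technical limit but inside 2-fold. CLCN5, an endosomal chloride-proton exchanger, read 0.916, 1.08 and 0.602, and ANPEP, an apical aminopeptidase, read 1.03, 0.926 and 0.581. For both, sunitinib was the lowest array, with log2 ratios of -0.61 ± 0.47 and -0.82 ± 0.48. GGT1, which splits glutathione at the apical membrane, read 2.70, 3.24 and 3.13, with both ratios inside the technical limit.

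Only SLC5A2 and SLC4A4 of the 9 proximal solute carriers gave a value. SLC5A2, the main glucose carrier of the proximal tubule, read 0.352 on the control array, 0.317 with cordyceps and 0.437 with sunitinib, and its ratios were inside the technical limits. SLC4A4, the basolateral bicarbonate exit path, read 0.266 on the control array and was not well above background on the treated arrays. It was at least 1.21-fold lower with cordyceps and at least 1.13-fold lower with sunitinib, which made no call. UMOD, the uromodulin gene of the thick ascending limb, was the distal gene that was detected. It read 0.449, 0.354 and 0.470, all within 2-fold of each other.

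The sodium pump genes parted, with FXYD2 lower on both treated arrays and ATP1B1 not. FXYD2, the gamma subunit that tunes the pump in tubule cells, had relative levels of 2.38 on the control array, 0.667 with cordyceps and 0.508 with sunitinib. Both treated arrays were low, with log2 ratios of -1.83 ± 0.44 (3.57-fold lower) and -2.23 ± 0.48 (4.68-fold lower). The sunitinib value was the lowest of the tubule genes measured there, at rank 94 from the lowest of 12992 genes. A second FXYD2 probe was well above background only on the control array and gave bounds of -0.22 for cordyceps and -0.12 for sunitinib. The mean over FXYD2 probes was -1.03 for cordyceps and -1.17 for sunitinib, past 2-fold in both, and the bound of the second probe makes these means bounds as well. ATP1B1, the beta subunit, read 44.6, 53.5 and 30.3, within 2-fold throughout.

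GPX3 had the highest ratio of the tubule genes with sunitinib. GPX3 is the secreted glutathione peroxidase that proximal tubule cells release into plasma. Its relative level was 0.256 on the control array and 2.78 on the sunitinib array, and it was 0.129 on the cordyceps array, where it was not well above background. Only the sunitinib array was high, with a log2 ratio of 3.45 ± 0.49 (10.9-fold higher), rank 5 from the highest of 12992 measured genes. The second GPX3 probe was well above background on the sunitinib array alone, and its log2 ratio was at least 2.20. For cordyceps the gene was at least 1.17-fold lower, which made no call. ASS1, the argininosuccinate synthase of the urea cycle, read 9.33 on the control array, 10.5 with cordyceps and 7.10 with sunitinib, with no call.

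VCAM1 and HAVCR1, which mark injured or incompletely repaired tubule cells, were lower on both treated arrays. VCAM1, an adhesion molecule for leukocytes, had relative levels of 20.7 on the control array, 7.47 with cordyceps and 4.49 with sunitinib. Its log2 ratio was -1.47 ± 0.40 (2.77-fold lower) for cordyceps and -2.20 ± 0.40 (4.61-fold lower) for sunitinib. HAVCR1, a phosphatidylserine receptor shed by injured proximal cells, read 3.22, 1.38 and 0.945, so that control was again the highest array. Its ratios were -1.22 ± 0.41 (2.33-fold lower) and -1.77 ± 0.43 (3.41-fold lower). With arrays scaled to the median the HAVCR1 ratio for cordyceps was -1.0, just inside 2-fold. PROM1, a marker of tubule progenitor-like cells, read 0.364 on the control array and 0.312 with sunitinib, and was at least 1.66-fold lower with cordyceps, where it was not well above background. VIM, the vimentin gene of mesenchymal and regenerating cells, read 866, 751 and 1360 on the control, cordyceps and sunitinib arrays. Its sunitinib ratio was 0.66 ± 0.40, and neither VIM ratio passed 2-fold.

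Keratins of simple epithelium stayed within 2-fold of control. KRT7 read 61.9 on the control array, 76.3 with cordyceps and 39.6 with sunitinib, and KRT8 read 29.6, 24.9 and 44.0. The sunitinib ratios of these keratins were of opposite sign, at -0.65 ± 0.40 for KRT7 and 0.57 ± 0.40 for KRT8. KRT18, the filament partner of KRT8, read 198, 216 and 254. KRT19 read 1060, 876 and 1150, with both ratios inside the technical limit. KRT8 and KRT18 have many processed pseudogenes, so their probes may share signal with near-identical copies.

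**Figure D3:**
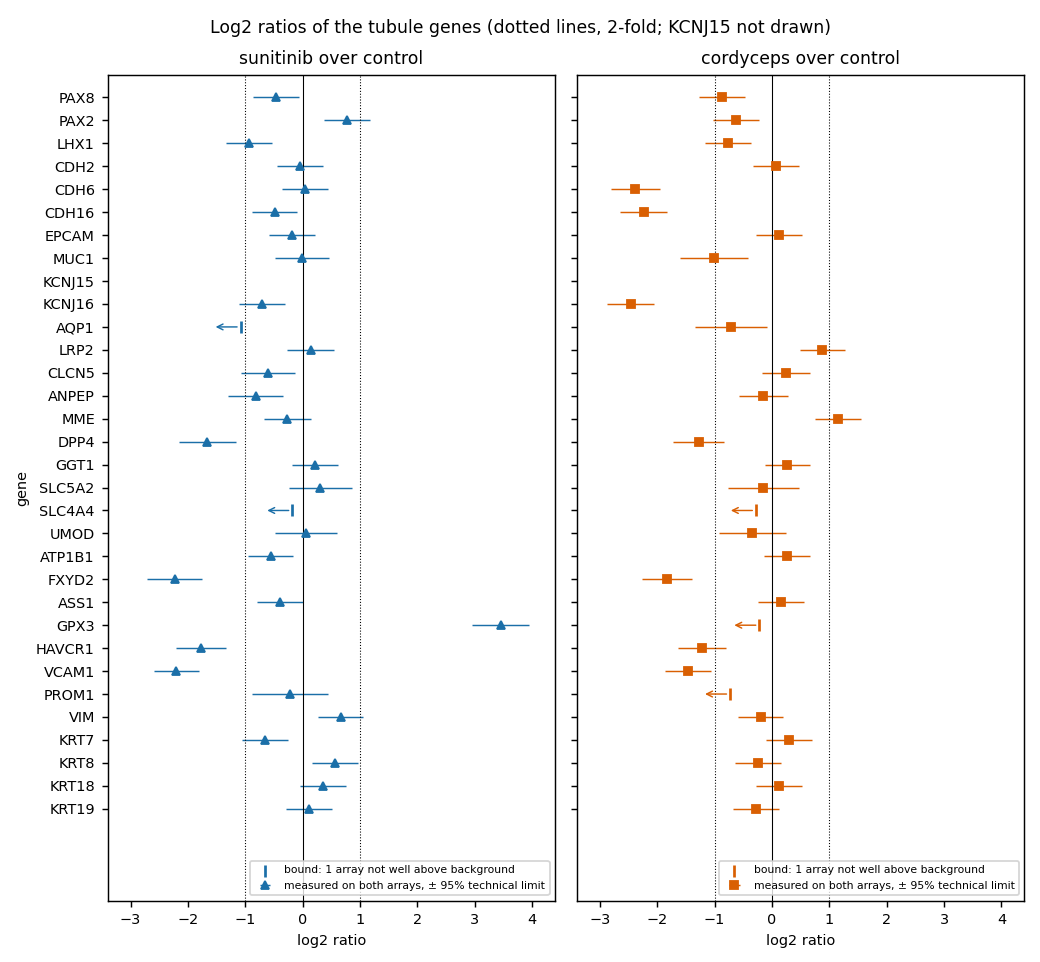
Log2 ratio of each detected tubule gene for sunitinib over control (left) and cordyceps over control (right); bars are the 95% technical limit, ticks with arrows are bounds where 1 array was not well above background, and KCNJ15 is not drawn. DPP4, FXYD2, HAVCR1 and VCAM1 lie left of the 2-fold line in both panels, whereas CDH6, CDH16 and KCNJ16 do so only at right and GPX3 lies right of it only at left.

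DPP4, FXYD2, HAVCR1 and VCAM1 were called lower in each comparison against the same control array. CDH6, CDH16, MUC1 and KCNJ16 were called lower with cordyceps and were within 2-fold with sunitinib, and AQP1 had the reverse pattern. Whether the agents differed for these genes was not tested, since each had 1 array. Of the 29 ratios measured for sunitinib, 11 were within 2-fold and passed the technical limit, and 5 of 28 did so for cordyceps. The median limit over the tubule genes was 0.40 in both comparisons. Such genes were not counted over the whole array. The quartiles of all measured log2 ratios were -0.37 and 0.39 for sunitinib and -0.25 and 0.27 for cordyceps, so ratios near the limit were common with sunitinib. The limit leaves out scaling, and median scaling moved the sunitinib median by -0.33.

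Upstream sequence is shown for VCAM1 and HAVCR1, which with FXYD2 had the lowest sunitinib ratios of the 4 genes called lower in each comparison, and for GPX3, the highest with sunitinib. FXYD2 had no sequence in the table used. Windows of 250 bases before to 50 bases after RefSeq gene starts (GRCh38.p14) were found for 38 of the genes and searched on both strands for the HNF1 motif GTTAAT and the HNF4 motif CAAAGTCCA. The motif GGGNTTTCC of NF-κB, the factor the study followed, was added after the values were seen. The 250 bases before each start follow, 5′ to 3′ on the gene's strand, with motif matches in capitals. They lie at chr1:100719492-100719741 (+) for VCAM1, chr5:157059117-157059366 (-) for HAVCR1 and chr5:151020341-151020590 (+) for GPX3.
VCAM1: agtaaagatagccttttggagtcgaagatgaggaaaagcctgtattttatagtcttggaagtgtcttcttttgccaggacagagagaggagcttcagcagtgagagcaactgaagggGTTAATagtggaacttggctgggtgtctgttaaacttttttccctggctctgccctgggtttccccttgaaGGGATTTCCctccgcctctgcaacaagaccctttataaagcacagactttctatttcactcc
HAVCR1: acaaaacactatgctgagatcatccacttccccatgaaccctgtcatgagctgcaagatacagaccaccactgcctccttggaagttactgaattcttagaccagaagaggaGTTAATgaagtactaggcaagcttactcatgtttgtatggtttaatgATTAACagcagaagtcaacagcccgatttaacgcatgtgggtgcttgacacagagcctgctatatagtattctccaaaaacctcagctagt
GPX3: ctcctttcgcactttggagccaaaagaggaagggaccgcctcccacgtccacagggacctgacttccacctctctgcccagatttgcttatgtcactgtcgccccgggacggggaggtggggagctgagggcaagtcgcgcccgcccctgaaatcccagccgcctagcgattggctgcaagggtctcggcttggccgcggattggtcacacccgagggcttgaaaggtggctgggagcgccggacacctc
VCAM1 held 1 HNF1 match starting 133 bases before the start and 1 NF-κB match starting 62 bases before it. HAVCR1 held 2 HNF1 matches, starting 138 and 91 bases before the start, and GPX3 held none of the 3 motifs. The HNF1 motif was present in 6.88% of all 35116 windows and in at least 1 window of 8.27% of genes, and it was found in 7 of the 38 tubule genes (18.4%). Besides HAVCR1 and VCAM1 these were HNF4A, ANPEP, SLC5A1, SLC22A6 and SLC34A1, of which only ANPEP was detected in these cells. The NF-κB motif was present in 1.86% of all windows and in VCAM1 alone of the 38 genes, and the HNF4 motif in 0.384% of windows and in none of the 38. These matches describe letters in a window and are not evidence of binding.

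Other genes of the nephron, 210 in 11 lists, do not repeat the tubule genes above. With sunitinib 11 were higher (10.2%) and 19 lower (17.6%) of 108 compared, beside 6.41% and 6.49% over all genes compared. The tubule group had 3.23% higher and 16.1% lower there, so its share of lower genes was close to that of these lists. With cordyceps 10 were higher and 12 lower of 109 compared, beside 2.93% and 2.74% over all genes compared. The tubule group had 2 higher and 8 lower of 32 with cordyceps, where KCNJ15 in the bright streak was 1 of the 2. The medians of the measured genes in these lists were 0.05 for sunitinib and 0.01 for cordyceps. PPARGC1A, a coactivator of mitochondrial genes, had the highest sunitinib ratio of the measured nephron factors, 1.63. Proximal carriers outside the group were mostly undetected, 19 of 32 in either comparison. SLC22A4, an ergothioneine carrier, was the lowest of those measured in both comparisons, at -1.42 for cordyceps and -1.78 for sunitinib. SLC5A12, a lactate carrier, was 1.12 for cordyceps and SLC22A7, an organic anion carrier, 1.24 for sunitinib, the highest in each. PDZK1, the scaffold that anchors apical carriers, was detected on the control array only and was at least 2.39-fold lower with cordyceps and at least 2.23-fold lower with sunitinib. The ACE spot lay in the bright streak of the cordyceps array, so its value there is not used, although it counts among the 10 higher genes.

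Genes of the distal segments gave 3 lower and 0 higher of 10 compared in the loop and distal list with sunitinib, and 5 lower and 0 higher of 7 in the collecting duct list, beside the 6.49% lower over all genes. With cordyceps the same lists gave 0 lower of 10 and 3 lower of 7, with none higher, beside 2.74% lower. CLDN16, the tight junction protein for magnesium uptake, had the lowest sunitinib ratio of the loop genes, -2.01, and a cordyceps ratio of -0.24. NR3C2, the mineralocorticoid receptor, was lower in both comparisons, at -1.51 for sunitinib and -1.19 for cordyceps. The related Kir and water channel genes ranged with sunitinib from KCNJ12 at -2.28 to KCNJ2 at 2.13, while neither passed 2-fold with cordyceps. KCNJ14 was highest with cordyceps at 1.05. Of the junction genes, CLDN1 was lowest with sunitinib at -2.0 and DSP, the desmoplakin gene, highest at 1.07. CYP24A1, which inactivates vitamin D, had the lowest sunitinib ratio of the proximal metabolism list, -3.41, against -0.23 for cordyceps. None of the 4 sodium pump genes compared outside the group was called in either comparison, where ATP1B3 ranged from -0.63 for sunitinib to 0.71 for cordyceps.

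**Figure D4:**
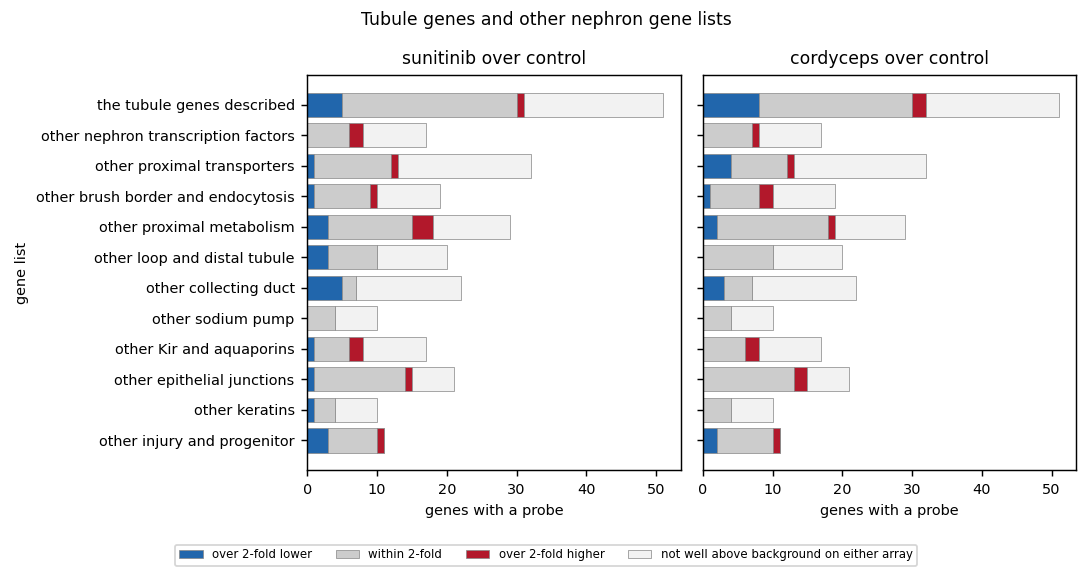
Number of genes with a probe in the tubule group and in 11 other nephron lists that were over 2-fold lower, within 2-fold, over 2-fold higher or not well above background on either array, for sunitinib (left) and cordyceps (right). The pale part, genes not detected, covers 15 of 22 genes in the collecting duct list, and 5 of its other 7 genes were lower with sunitinib.

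Genes listed as markers of other cell types were also read, although all samples came from a single carcinoma line. Of 6 fibroblast markers, 4 were detected on the control array, and the summed relative level of the list was 43.2 with control, 13.6 with cordyceps and 12.4 with sunitinib. COL1A1 alone made up most of the control sum, at 32.2, and read 7.75 with cordyceps and 4.92 with sunitinib. COL1A1, DCN and LUM were lower in both comparisons, PDGFRB had log2 ratios of -0.19 for cordyceps and 0.66 for sunitinib, and COL1A2 and COL3A1 were not well above background on any array. Podocyte markers summed to 7.28, 3.94 and 9.31 on the control, cordyceps and sunitinib arrays, with NPHS1 and PTPRO not detected. SYNPO made up most of the podocyte sum, at 6.3, 3.18 and 8.11. Endothelial markers summed to 1.32, 1.26 and 1.12, with PECAM1, TEK and EMCN not detected. Of 5 leukocyte markers 3 had a probe, and their sum was 4.41, 2.89 and 2.33. CD14 made up most of that sum, at 4.21, 2.71 and 1.48, and CD3E was not detected. PTPRC, read by 1 of its 5 probes, was called higher with sunitinib, with a log2 ratio of 2.39. Its processed signal was 45.7 there and 18.4 on the control array, where the lowest signal well above background was 18.2. That ratio therefore rests on a control value at the detection floor. The part of these shifts in the ratios of the tubule genes was not tested.

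**Figure D5:**
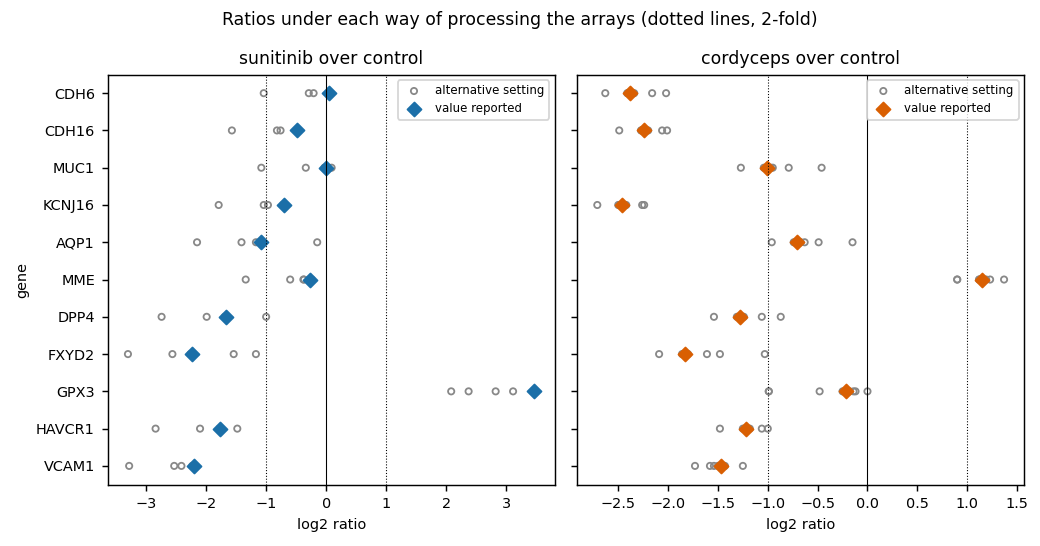
Log2 ratio of the 11 tubule genes called in either comparison, KCNJ15 aside, under the reported processing (filled diamonds) and each alternative (open circles), for sunitinib (left) and cordyceps (right). VCAM1, HAVCR1 and FXYD2 stay below -1 in every setting at left, CDH6, CDH16 and KCNJ16 stay below -2 in every setting at right, and MUC1, DPP4, HAVCR1 and MME each have a setting at right that does not pass 2-fold.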

How the data were processed

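Total RNA of TK-10 cells was labelled with Cy3 and hybridised to 3 Agilent arrays, 1 per condition, on 1 slide read in 1 scan. The deposited files hold each spot's processed intensity, which the scanner software (Feature Extraction 11.5.1.1, design annotated on hg19) had corrected for background. The methods of the study name another, 2-colour array. A deposited series table held the same intensity values, equal within 0.01% for 99.87% to 99.92% of probes, with column medians of 14.36 (control), 10.34 (cordyceps) and 8.584 (sunitinib), so its scale is linear and not centred.

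Outlier spots (63 to 121 of 62976 per array) were left out, repeat spots were averaged per probe, and intensities were taken to log2 and set against the array's 75th percentile over 58201 gene probes. Of these probes, 31104 were named through their RefSeq accession (22430 genes). The probe brightest over the 3 arrays stood for a gene, and 18 of the tubule genes had several probes. Between 37.8% and 45.5% of probes were well above background per array. A bound used the lowest signal well above background (18.2, 30.2 and 18.34 on the control, cordyceps and sunitinib arrays), or the gene's own signal where that was higher. No spot was saturated. Precision was limited by the number of arrays, so no test was run. Spots in windows of 7 by 7 whose median log2 signal was over 1.0 above the brighter of the other arrays numbered 567 on the cordyceps array and 40 on the sunitinib array.

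The genes and lists were chosen with earlier results of these data known. Every gene of the group was accounted for, and from each other list the highest and lowest measured ratios guided which genes were named, besides genes chosen after their values were seen (PDZK1, ACE, ITGB6, TAGLN, LUM). Alternatives were 12 planned and 1 added after seeing the data. The procedure was tested only on simulated copies of the control array, with large changes planted in bright probes. That test does not bear on dim probes or on changes near 2-fold. Python 3.11.15, numpy 2.4.6, pandas 2.3.3, R 4.3.3 and limma 3.58.1 (normexp, offset 50) were used.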

Additional observations from a re-analysis of the deposited data

How the results depend on the processing

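Scaling and the treatment of dim spots changed the counts, while no ratio by which a tubule gene was called changed sign under the 12 planned and 1 added alternatives. For sunitinib, 15 genes were higher instead of 1 with no filter and no floor, and 3 when detection meant positive and significant, because genes not well above background on either array then entered. Over all genes, these settings gave 6231 and 2356 higher in place of 955. Lower genes numbered 8 instead of 5 with arrays scaled to the median (LHX1, KCNJ16 and ANPEP added), and 22 with the deposited table without scaling. For cordyceps, higher genes numbered 1 instead of 2 with the deposited table and with normexp (MME lost), and 1 with detection required on both arrays and with bright areas left out (KCNJ15 lost), against 8 with no filter and no floor. Over all genes, the higher counts in these settings were 265, 188, 320, 383 and 1615 in the same order, in place of 433. Lower cordyceps genes numbered between 6 and 12, beside between 186 and 965 over all genes, in place of 8 and 405. Ratios ranged over the alternatives from -3.28 to -2.20 for VCAM1, from -3.30 to -1.17 for FXYD2 and from 2.08 to 3.47 for GPX3 with sunitinib, and from -2.71 to -2.24 for KCNJ16, from -2.63 to -2.02 for CDH6 and from -2.49 to -2.01 for CDH16 with cordyceps. Of the recomputed log2 ratios of the called genes, 19 were flagged as moved and 253 were not. Settings that change only detection cannot alter a ratio measured on both arrays, so part of the 253 could not have moved. The 253 also hold shifts such as MUC1 with cordyceps, at -0.46 under normexp against -1.01. No paired analysis was possible because each condition had 1 array, and no array could be left out. What the arrays cannot show is the variation between cultures. All 3 arrays lay on 1 slide, so a position effect such as the streak and an effect of the agent cannot be told apart for spots inside it. Genes near background have only bounds.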

Other observations

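Of 11 genes of epithelial injury and repair outside the tubule group, 3 were lower (27.3%) and 1 higher (9.09%) with sunitinib. Over all genes compared, 6.49% were lower and 6.41% higher. With cordyceps 2 were lower (18.2%) and 1 higher (9.09%), beside 2.74% and 2.93%. CCL2, a monocyte chemokine, had relative levels of 75.9 on the control array, 31.4 with cordyceps and 5.65 with sunitinib, with log2 ratios of -1.27 and -3.75. LCN2, an iron-carrier protein released by injured tubules, read 30.4, 105 and 8.49, so that control lay between the treated arrays. Its ratios were 1.79 for cordyceps and -1.84 for sunitinib. ITGB6, an integrin of injured epithelium, was detected on the control array only and was at least 3.27-fold lower with cordyceps and at least 3.05-fold lower with sunitinib. SOX9, a factor of regenerating tubule cells, had a sunitinib ratio of 1.35.

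Of 11 genes of the mesenchymal switch, 3 were lower (27.3%) in each comparison, beside 6.49% with sunitinib and 2.74% with cordyceps over all genes. With sunitinib 1 was higher (9.09%, beside 6.41%). FN1, the fibronectin gene, had ratios of -1.46 for cordyceps and -1.72 for sunitinib, CDH11, a mesenchymal cadherin, -1.90 and -1.10, and TAGLN, a smooth muscle actin-binding protein, -1.63 and -1.44. ACTA2, smooth muscle actin, had a sunitinib ratio of 1.32. Of 7 genes listed for clear cell carcinoma 6 had a probe, and CA9 and EGLN3 were not well above background on any array. ANGPTL4, a PPAR and hypoxia target, was higher in both comparisons, at 1.19 for cordyceps and 1.66 for sunitinib. VEGFA was 0.48 and -2.37 in the same order. NNMT, at -0.81 and -0.14, and PLIN2, at 0.21 and 0.7, stayed within 2-fold. These values rest on 1 array per condition and no explanation was tested.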
